A study of Mus musculus with 10 samples.

Results

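Actb and 7 further genes of the actin cytoskeleton were followed in single-cell RNA-seq libraries of E0771 mammary tumors. The 8 genes, of 31053 in the gene list, were Actb, Actg1, Pfn1, Cfl1, Tmsb4x, Tmsb10, Myl6 and Flna. They were selected by name because earlier results of these data had shown a high share of Actb in batch 2, so every difference between the batches is given as a description with no test. The question was whether the other actin genes share the high level of Actb in batch 2.

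E0771 is a mouse mammary carcinoma line that grows in C57BL/6 mice. The mice were females of 16 weeks that received the cells in a mammary fat pad, and tumors were taken at day 21. The EC-AGO1-KO mice carry floxed Ago1 alleles and Cre driven by the VE-Cadherin promoter, which is active in endothelial cells, and the WT mice were littermates whose alleles are not given in the sources used here. The injected cells came from the same line in both groups. There were 5 WT and 5 KO libraries, and the 5 KO libraries hold 7 tumors because KO 2+3 and KO 5+6 each pool 2. Batch 1 holds 1 WT and 1 KO library, and batch 2 holds WT 1, 3, 4 and 5 and KO 1, 2+3, 4 and 5+6. The batches were sequenced on different NovaSeq models.

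Actin filaments are polymers of globular actin that push membranes forward, brace the cell cortex and carry myosin motors. Non-muscle cells make 2 nearly identical actins, beta from Actb and gamma from Actg1. Monomers are held in reserve by thymosins and handed to growing ends by profilin, while cofilin severs old filaments. Actb mRNA is abundant in most cells and is often used as a reference transcript.

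Libraries held 8323896 to 10591577 UMIs (unique molecular identifiers, each standing for 1 captured transcript), and the limits on genes and mitochondrial share left 65298 cells. A cell had a median of 4049 UMIs in the WT and 3862 in the KO library of batch 1, against 595 to 1142 in batch 2. The median mitochondrial share was 2.70% and 2.77% in batch 1 and 0.158% to 0.613% in batch 2. No 2 libraries shared more than 0.503% of the barcodes of the smaller one. Ago1 was at 4.97 to 7.96 counts scaled to a total of 1000000 (CPM) in the cells of all 10 libraries, with Actb left out of the total. The genotypes overlapped, which does not check a deletion that is confined to the few endothelial cells. The libraries of batch 1 stand apart in UMIs per cell and in mitochondrial share, and batch cannot be told apart from sequencer or depth.

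Actb (ENSMUSG00000029580) lies on the minus strand at chr5:142903115-142906754 and Actg1 (ENSMUSG00000062825) on the minus strand at chr11:120345690-120348542 (GRCm38, the Ensembl name of mm10). Their coding sequences are 1128 bases each in the GENCODE transcripts Actb-201 and Actg1-202 and are identical at 1000 of these, or 88.7%. The first 60 coding bases show how alike the mRNAs of the 2 actins are, with capitals at the 9 bases that differ.
Actb: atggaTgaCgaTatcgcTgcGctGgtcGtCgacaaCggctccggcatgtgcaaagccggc
Actg1: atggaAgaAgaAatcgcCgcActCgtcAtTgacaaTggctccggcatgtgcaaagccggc
Windows of 60 bases taken along the last 500 bases of each transcript, the part read by a 3′ assay, held no match of Actg1 in another gene, and 4.76% of those of Actb matched 1 gene, Lrrc58. For Tmsb10 17.4% and for Myl6 44.7% of the windows matched other genes, most of them named as predicted genes, so reads of these 2 may have been shared out or discarded. The 4 other genes had no such window.

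Actb took more UMIs than any other gene in the cells of every library. It made up 1.99% of all UMIs in the WT and 2.27% in the KO library of batch 1. In batch 2 it made up 8.77%, 13.0%, 17.0% and 13.8% in WT 1, 3, 4 and 5, and 13.3%, 13.1%, 10.5% and 11.7% in KO 1, 2+3, 4 and 5+6. All 8 libraries of batch 2 lay above both libraries of batch 1, and WT and KO overlapped within batch 2. Because a gene of this size lowers the share of every other gene, levels from here on are CPM of a total that leaves Actb out. On that scale Actb had a mean of 21785 ± 2059 CPM (SD, n = 2) in batch 1 and 145320 ± 32160 CPM (SD, n = 8) in batch 2, 6.67 times more.

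The share was high in cell after cell. Among cells with at least 500 UMIs, the median cell of batch 1 gave 1.75% (WT) and 2.03% (KO) of its UMIs to Actb, and the median cell of a batch 2 library 7.56% to 16.1%. The lowest 5% of cells in a batch 2 library lay below 1.66% to 4.39%, and the top 5% above 22.2% to 36.3%. The 7 other genes together made up 1.52% and 1.58% of the median cell in batch 1, and 0.109% to 0.163% in batch 2.

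Actg1, which encodes the second cytoplasmic actin, was on the other side. It was at 2061 CPM in the WT and 2384 CPM in the KO library of batch 1. In batch 2 it was at 440 CPM in WT 1, 447 CPM in WT 3, 588 CPM in WT 4 and 338 CPM in WT 5. The KO libraries of batch 2 had 562 CPM in KO 1, 522 CPM in KO 2+3, 332 CPM in KO 4 and 468 CPM in KO 5+6. Every batch 2 library lay below both batch 1 libraries, and the mean was 4.81 times lower. There were 9.86 and 9.75 Actb UMIs per Actg1 UMI in batch 1, and 218 to 473 in batch 2.

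Of the proteins that bind monomers, the thymosins showed the widest gaps. Tmsb10, which encodes thymosin beta-10, was at 11581 and 12388 CPM in batch 1 and at 198 to 297 CPM in batch 2, with a median of 257 CPM, and its mean was 47.5 times lower. Tmsb4x encodes thymosin beta-4, the main monomer reserve of blood cells. It was at 779 and 929 CPM in batch 1 and at 44.5 to 150.0 CPM in batch 2, with a median of 62.2 CPM, and its mean was 11.9 times lower. KO 2+3 held the highest value of batch 2, and no other library there passed 78.4 CPM. In cells with 500 or more UMIs its mean was 18.1 times lower.

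Profilin and cofilin were lower by a smaller factor. Pfn1, which encodes profilin-1, was at 621 and 666 CPM in batch 1 and at 284 to 435 CPM in batch 2, a mean 1.79 times lower. Cfl1, which encodes cofilin-1, was at 1075 and 1149 CPM against 425 to 683 CPM, a mean 2.02 times lower. The batches did not overlap for either gene.

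Myl6 encodes the essential light chain of non-muscle and smooth muscle myosin, and Flna the crosslinker filamin A. Myl6 was at 910 and 941 CPM in batch 1 and at 83.3 to 132 CPM in batch 2, a mean 8.49 times lower. Flna was at 190 and 212 CPM against 89.9 to 133 CPM, a mean 1.77 times lower. Actb was thus the single gene of the 8 that was higher in batch 2, and the 7 others were lower in every library of batch 2 than in both libraries of batch 1.

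**Figure D1:**
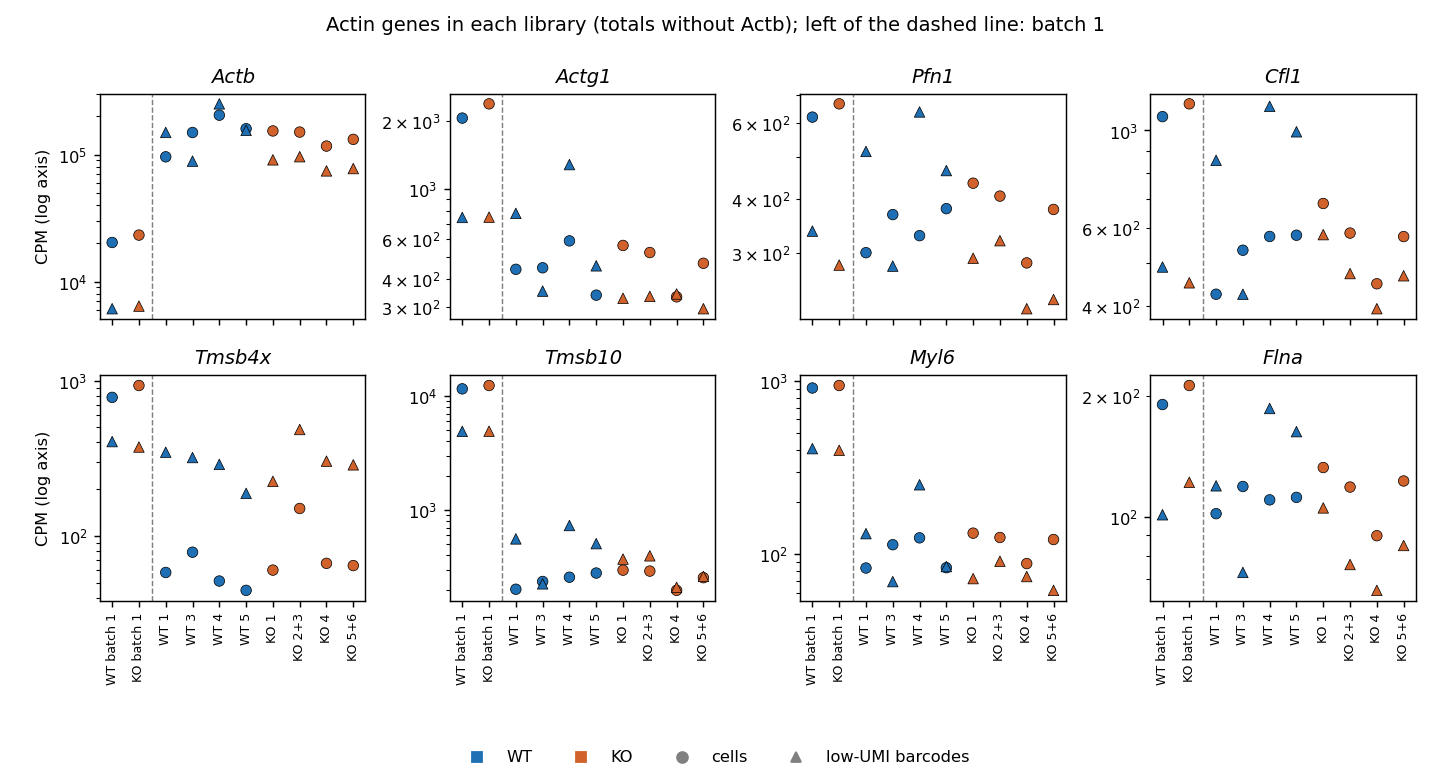
CPM of each gene (log axis, totals without Actb) in the 10 libraries, WT in blue and KO in orange, with circles for cells and triangles for barcodes of 1 to 50 UMIs. Circles of Actb are higher to the right of the dashed line, in batch 2, and circles of the 7 other genes are lower there.

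These counts stand against a background in which most genes differed between the batches. Of 2838 genes with a mean of 100 CPM or more in either batch, 59.3% lay higher in all batch 2 libraries than in both of batch 1, and 33.1% lay lower in all of them. The median gene was 1.83 times higher in batch 2, which a fixed total allows only if some abundant genes are lower. Actb had rank 22 of 2838 by its ratio. The highest ratios were those of Gm10800 (55.2), Gm10801 (41.8), Gm21738 (25.4), Chl1 (22.1) and Gm10719 (20.8). Among the lowest levels in batch 2 relative to batch 1 were those of Hist1h2ap (3319 times lower), Gm10076 (249 times), Olfr889 (240 times) and Gstp1 (208 times). Other abundant cytoplasmic mRNAs resembled the 7 genes rather than Actb. Of 20 such genes in a list fixed with earlier results known, 19 were lower without overlap and 0 higher, among them Gapdh (12.7 times), Fth1 (17.0 times) and Eef1a1 (1.76 times). Ribosomal protein genes were lower in 76 of 80 and higher in 0, and all 12 mitochondrial genes at that level were lower.

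The wider actin machinery went both ways, counted over the genes of each list at 100 CPM or more. Of 8 such factors that nucleate or elongate filaments, 7 were higher in batch 2 and 0 lower, with the formin genes Diaph2 and Diaph3 at 2.70 and 3.24 times. In the Arp2/3 complex, which branches filaments, 2 subunits of 8 were higher and 5 lower. Actr2 was 3.76 times and Arpc4 2.80 times higher, while Arpc1b was 7.20 times lower. Among crosslinkers 5 of 9 were higher and 3 lower, with Fscn1, which encodes the bundling protein fascin, 4.24 times higher and Lcp1, the plastin of blood cells, 7.84 times lower. Capping genes split 3 higher to 2 lower of 5, tropomyosins 1 to 2 of 3, and membrane or adhesion linkers 2 to 3 of 6. Myosin genes split 2 to 2 of 4, and the heavy chain gene Myh9 was 3.79 times higher where the light chain genes Myl12a and Myl12b were 3.84 and 7.99 times lower. Of 5 genes of monomer binding, severing and turnover, 3 were higher and 0 lower. Tubulin and intermediate filament genes split 2 to 4 of 7, and Tubb5, which encodes a beta-tubulin, was 5.88 times higher.

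By the ratio of batch 2 to batch 1, Actb stood above the 7 others in the 3 cell classes described here. Classes were named from marker genes of clusters made within each batch, and 55466 cells were tumor- or mesenchyme-like, 2278 myeloid-like and 1372 T-like. In the tumor- or mesenchyme-like cells Actb made up 1.79% and 2.00% of UMIs in batch 1 and 8.59% to 16.9% in batch 2, a ratio of 7.37 in CPM. In the myeloid-like cells it made up 3.36% and 3.59% against 15.7% to 21.3%, a ratio of 6.31. In the T-like cells it made up 2.10% and 2.20% against 11.6% to 17.0%, a ratio of 7.76. Its rank by ratio in these 3 classes was 18 of 2806, 176 of 2826 and 100 of 2913. The 7 other genes were lower in batch 2 without overlap in all 3 classes. Of 2806 genes at 100 CPM or more in tumor- or mesenchyme-like cells, 929 were lower without overlap and 1648 higher. In myeloid-like cells these were 772 and 1275 of 2826 genes, and in T-like cells 681 and 973 of 2913. Tmsb4x was below 100 CPM in tumor- or mesenchyme-like cells and is not in that count. With clusters made at a resolution of 0.5, Flna overlapped in the myeloid-like cells, with up to 236.5 CPM in batch 2 against 187.5 and 188.6 CPM in batch 1.

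The factors by which they were lower kept a similar order. Tmsb10 was 51.9, 25.8 and 73.6 times lower in tumor- or mesenchyme-like, myeloid-like and T-like cells, and Actg1 4.66, 4.48 and 4.92 times. Tmsb4x was about as much lower in each class, by 2.91, 3.13 and 2.92 times, while in all cells together it was 11.9 times lower. Its level differed by cell class, with 4739 CPM in myeloid-like, 2781 CPM in T-like and 78.3 CPM in tumor- or mesenchyme-like cells of batch 1, and the myeloid-like cells were 715 of 2162 cells in batch 1 and 1563 of 63136 in batch 2. In batch 2 the 3 levels were 1512, 953 and 26.9 CPM. Counts of the immune classes were small in batch 2. Flna had 35 UMIs over all myeloid-like and 15 over all T-like cells, and Tmsb10 54 and 56. The marker lists were also less distinct there. In myeloid-like cells the summed level of 12 myeloid markers was 23990 to 24040 CPM in batch 1 and 3044 to 5963 CPM in batch 2, while that of 8 tumor or mesenchyme markers was 1791 to 1792 CPM and 3933 to 8984 CPM. In T-like cells 12 T markers summed to 5386 to 5739 CPM in batch 1 and 1651 to 3058 CPM in batch 2, and the tumor or mesenchyme markers to 924 to 994 CPM and 2127 to 10720 CPM. The 2 immune names are thus less secure in batch 2, and the part of tumor RNA in their ratios was not tested.

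**Figure D2:**
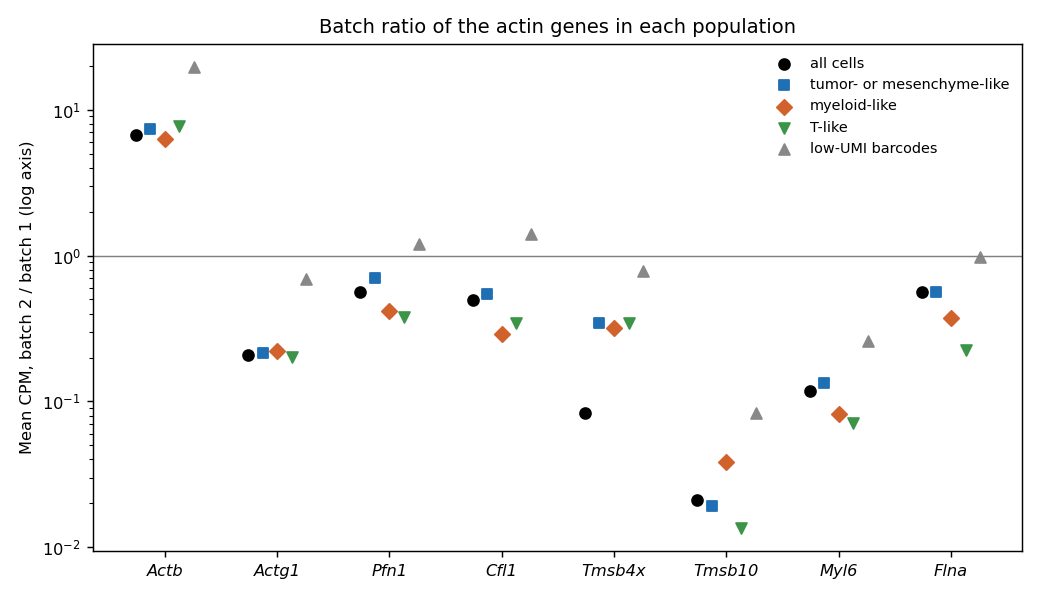
Mean CPM in batch 2 over mean CPM in batch 1 (log axis, 8 and 2 libraries) for each gene in all cells, 3 cell classes and the barcodes of 1 to 50 UMIs. Actb lies above 1 in all 5 populations, and the other 7 genes lie below 1 in all cells and in the 3 classes.

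RNA outside cells was read from barcodes with 1 to 50 UMIs, which hold 843290 to 1733026 UMIs per library and are too small to be counted as cells here. There Actb had 6118 and 6415 CPM in batch 1 and 74482 to 251159 CPM in batch 2, 19.6 times more in the mean. Of 1881 genes at 100 CPM or more in these barcodes, 77.3% were higher in batch 2 without overlap and 13.9% lower. Among the 7 other genes Tmsb10 was 12.0 times and Myl6 3.84 times lower without overlap. Actg1, Pfn1, Cfl1, Tmsb4x and Flna overlapped between the batches. Barcodes with 1 to 10 UMIs gave a smaller ratio for Actb, 5.20, and there Actg1 was 4.75 times lower without overlap.

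The share of Actb differed between barcodes of different sizes, and over a wider fold range in batch 1 than in batch 2. In batch 1 it was 2.68% (WT) and 2.50% (KO) in barcodes with 1 UMI, 0.321% and 0.314% at 11 to 50 UMIs, 2.95% and 3.29% at 2001 to 5000 UMIs, and 1.82% and 2.11% at 5001 or more. In batch 2 the 4 libraries of each genotype held 11.98% to 17.1% (WT) and 10.8% to 12.1% (KO) at 1 UMI, 6.98% to 22.1% and 5.51% to 8.24% at 11 to 50 UMIs, and 8.15% to 19.3% and 11.1% to 14.3% at 2001 to 5000. Each bin of batch 2 thus held more Actb than the same bin of batch 1. Tmsb4x in batch 1 made up 0.0467% and 0.0364% at 51 to 200 UMIs, 0.361% and 0.392% at 2001 to 5000, and 0.0203% and 0.0336% at 5001 or more, the bin that holds most UMIs of these libraries. In batch 2 it made up 0.0473% to 0.0895% at 51 to 200 UMIs and 0.0011% to 0.0047% at 2001 to 5000, and 5 libraries there had no more than 22 barcodes each at 5001 or more and 3 had none.

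**Figure D3:**
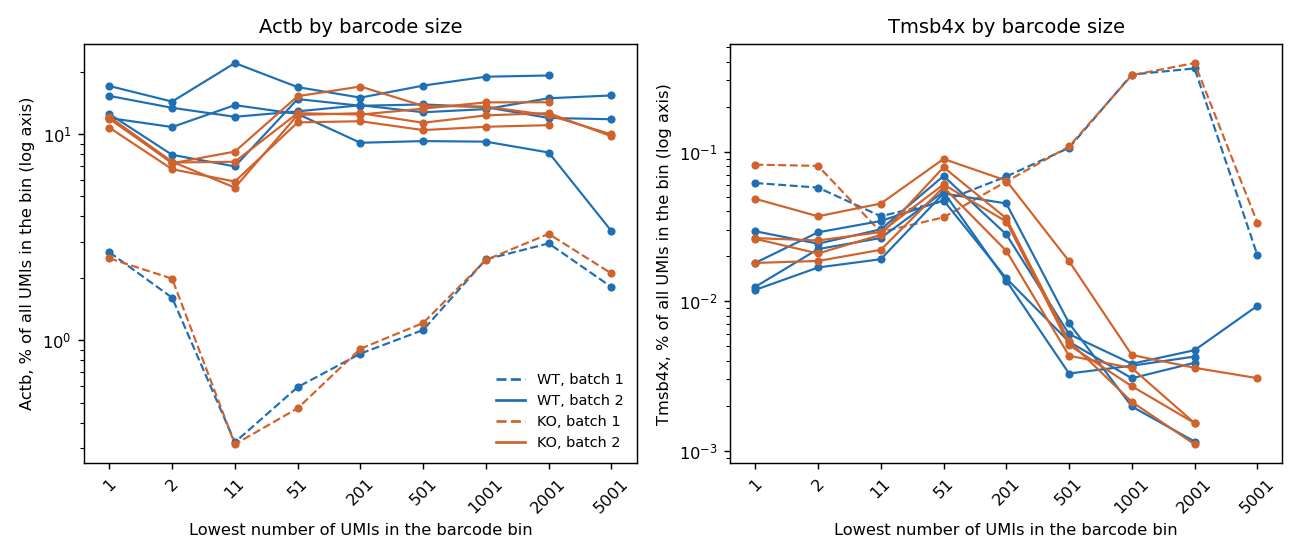
Share of Actb (left) and Tmsb4x (right) among all UMIs (log axes) in barcodes binned by their UMI number, 1 line per library, dashed for batch 1. Actb of batch 2 lies above batch 1 in every bin, and bins with 0 Tmsb4x UMIs or no barcode carry no point.

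The genes whose level across libraries was most like that of Actb were none of the actin genes. Over the 10 libraries the highest Pearson correlations of log2 CPM with Actb were those of Supt16 (0.999), Rpgrip1 (0.999), Cbx3 (0.998), Wtap (0.998) and Sephs2 (0.998), and those of the 7 other actin genes ran from -0.80 for Pfn1 to -0.95 for Tmsb10. These points share 2 batches that differ in nearly every gene. Over the 8 libraries of batch 2 alone the leading genes were Supt16 (0.991), Slc39a1 (0.987), Cbx3 (0.982), Rpgrip1 (0.975) and Wtap (0.973). There the actin genes ran from -0.07 for Tmsb4x to 0.74 for Cfl1. Supt16 encodes a histone chaperone, Cbx3 a heterochromatin protein, Wtap a partner of the RNA methyltransferase, Sephs2 an enzyme of selenium metabolism and Slc39a1 a zinc transporter. Supt16 had 310 CPM in batch 1 and 2520 CPM in batch 2, and Cbx3 930 and 4697 CPM.

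A feature that 5 of these 6 genes shared with Actb was noticed in their transcripts after the values had been seen. The 3′ UTR of Actb-201 holds an unbroken run of 29 T, which starts 120 bases past the stop codon and ends 535 bases before the end of the transcript. Supt16, Cbx3, Wtap, Sephs2 and Slc39a1 hold runs of 28, 22, 38, 21 and 32 T, all in the 3′ UTR. Rpgrip1 has no T run over 12 but an A run of 28, and it overlaps Supt16 on the opposite strand (chr14:52110704-52163546 against chr14:52160414-52197416). The 30 bases at the longest run are given for the genes on both sides, on the strand of the mRNA, with the run in capitals. Those of Wtap and Slc39a1 go on past the 30 bases shown.
Actb: TTTTTTTTTTTTTTTTTTTTTTTTTTTTTa
Supt16: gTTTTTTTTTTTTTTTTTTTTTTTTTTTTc
Cbx3: tttgTTTTTTTTTTTTTTTTTTTTTTgttt
Wtap: TTTTTTTTTTTTTTTTTTTTTTTTTTTTTT
Slc39a1: TTTTTTTTTTTTTTTTTTTTTTTTTTTTTT
Actg1: atttatgtaaggTTTTTTgtactcaattct
Pfn1: tggtcTTTTTTTTTTTTTTTTTTTTctgaa
Cfl1: gagcctgtaTTTTTTTTTTTaacgacaccc
Tmsb10: tcacacaaagcacTTTgtctcttccaaacc
Over all transcripts of a gene the longest run was 7 T in Actg1, 9 in Tmsb4x and Myl6, 5 in Flna and 4 in Tmsb10. Pfn1 with 20, which ends 24 bases before the end of its transcript, and Cfl1 with 21 in one transcript and 11 in the one shown had long runs and were still lower in batch 2.

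Across all genes the ratio of the batches went with the length of the longest T run. Of the 2834 genes with a matched transcript, those with runs of 0 to 9 T had a median ratio of 0.69 and 41.3% were higher in batch 2 without overlap. With 10 to 14 T the median was 1.96, with 15 to 19 2.40, with 20 to 24 3.07, and with 25 or more 3.77, where 92.4% of 118 genes were higher. For runs of A the medians over the same bins were 1.42, 2.28, 2.20, 2.02 and 2.29. Of the 100 genes with the highest ratios 47 held a run of 20 or more T, against 10.5% of all 2834. Such a run of A was held by 3, against 4.16%. In tumor- or mesenchyme-like cells 47 of the 100 held such a T run (10.6% of all) and 3 an A run (4.07%). In myeloid-like cells these were 19 (9.27%) and 10 (4.35%), and 3 and 5 of the top 50. In T-like cells they were 27 (9.86%) and 2 (4.26%). From 0 to 9 T to 25 or more, the medians went from 0.74 to 3.46, 0.83 to 4.13 and 1.065 to 3.48 in the 3 classes. Genes with long runs also had longer transcripts, with a median of 5125 bases at 25 or more T and 2745 bases at 0 to 9, and the part of transcript length was not tested. In barcodes with 1 to 50 UMIs the medians went from 2.71 to 7.52, and of the 100 genes with the highest ratios there 5 held a run of 20 or more T, against 12.3% of all.

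The 277 genes with a run of 25 or more T, Actb left out, took 2.34% and 2.45% of the remaining UMIs in cells of batch 1 and 7.82% to 9.78% in batch 2. The lowest of the batch 2 libraries was WT 1 and the highest WT 4, which were also the lowest and the highest for Actb. In barcodes with 1 to 50 UMIs these genes took 0.670% and 0.629% in batch 1 and 3.17% to 6.11% in batch 2. Whether the run itself has a part in the batch difference was not tested.

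**Figure D4:**
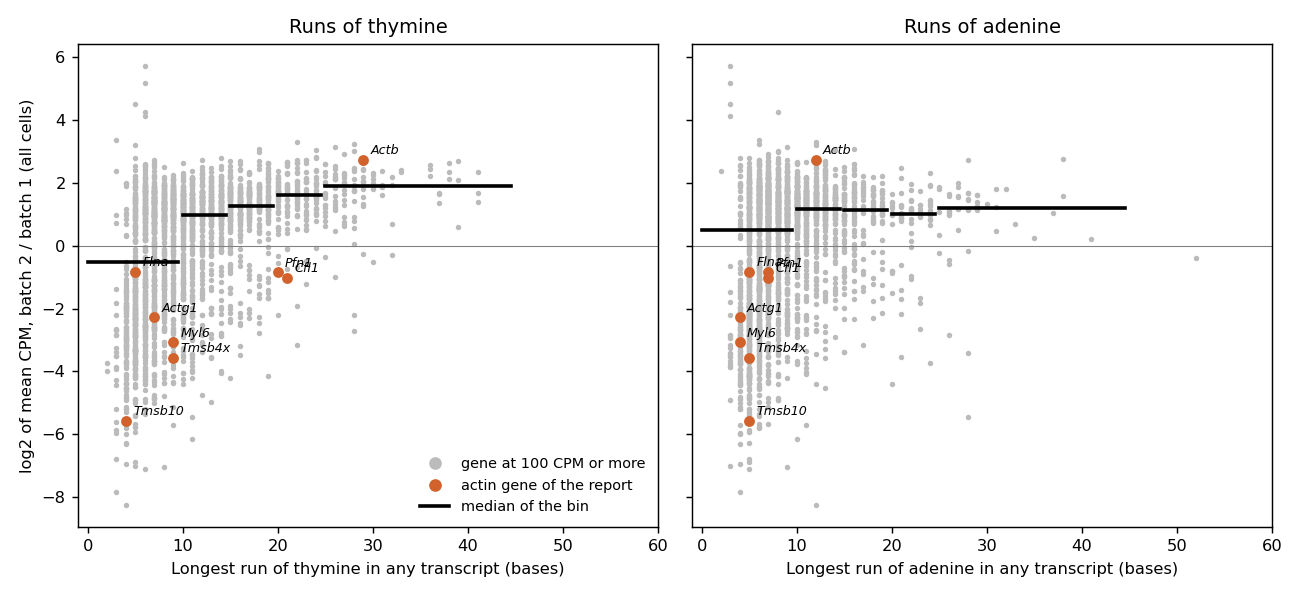
Log2 ratio of mean CPM in batch 2 to batch 1 in all cells against the longest run of thymine (left) or adenine (right) in any transcript, for genes at 100 CPM or more, with medians of the bins as bars. Medians are higher with longer thymine runs, Actb lies in the bin of 25 or more, and Tmsb10, Flna, Actg1, Tmsb4x and Myl6 lie in the bin of 0 to 9.

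The comparison the study was designed for, EC-AGO1-KO against WT, was tested in edgeR with batch as a covariate, over all genes of a population. In all cells 0 of 14182 genes passed an adjusted p of 0.05 (0%), with 1314 at an unadjusted p under that value and 2 genes passing in DESeq2. None of the 8 actin genes passed. Actb had 13.1% ± 3.38 (SD, n = 4) of UMIs in the WT and 12.1% ± 1.34 (SD, n = 4) in the KO libraries of batch 2, and a log2 fold change of -0.16 ± 0.19 (SE, adjusted p = 0.851 in edgeR), with a 95% interval from -0.57 to 0.25. For Actg1, Pfn1, Cfl1, Tmsb10, Myl6 and Flna the log2 fold changes were between 0.00 and 0.09, with intervals inside -0.36 to 0.41.

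Tmsb4x had the highest estimate, 0.41 ± 0.22 (SE, adjusted p = 0.585 in edgeR). Its batch 2 values were 58.1, 78.4, 51.2 and 44.5 CPM in WT 1, 3, 4 and 5 and 60.1, 150.0, 66.5 and 64.3 CPM in KO 1, 2+3, 4 and 5+6. WT 3 lay above 3 of the 4 KO libraries. KO 2+3, the highest, also held 524 of the 1372 T-like and 429 of the 2278 myeloid-like cells, the classes in which Tmsb4x is high. WT 5, the lowest at 44.5 CPM, held 82 T-like and 259 myeloid-like cells, and WT 3 held 109 and 161. Within the classes the log2 fold changes of Tmsb4x were -0.21 in tumor- or mesenchyme-like, 0.13 in myeloid-like and 0.19 in T-like cells. In bulk sums of all cells, more cells of a class and more RNA per cell cannot be told apart.

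The classes held no difference of the actin genes past the threshold. In tumor- or mesenchyme-like cells 0 of 13090 genes passed (0%, with 786 at an unadjusted p under 0.05 and 0 in DESeq2), and the log2 fold change of Actb was -0.16, with an interval from -0.55 to 0.24. In myeloid-like cells 3 of 2314 genes passed (0.13%), none of them among the 8, and Actb was at 0.16, with an interval from -0.18 to 0.49. In T-like cells 1 of 1563 passed (0.064%), again none of the 8. Flna was too sparse to be tested there, and the widest interval was that of Tmsb10, from -0.92 to 0.52. None of the genes in the lists of the actin machinery, tubulins and other abundant mRNAs passed in all cells, where they had median log2 fold changes of -0.11 for nucleation and elongation factors to 0.46 for the 2 rarer actins, against 0.00 for all genes.

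**Figure D5:**
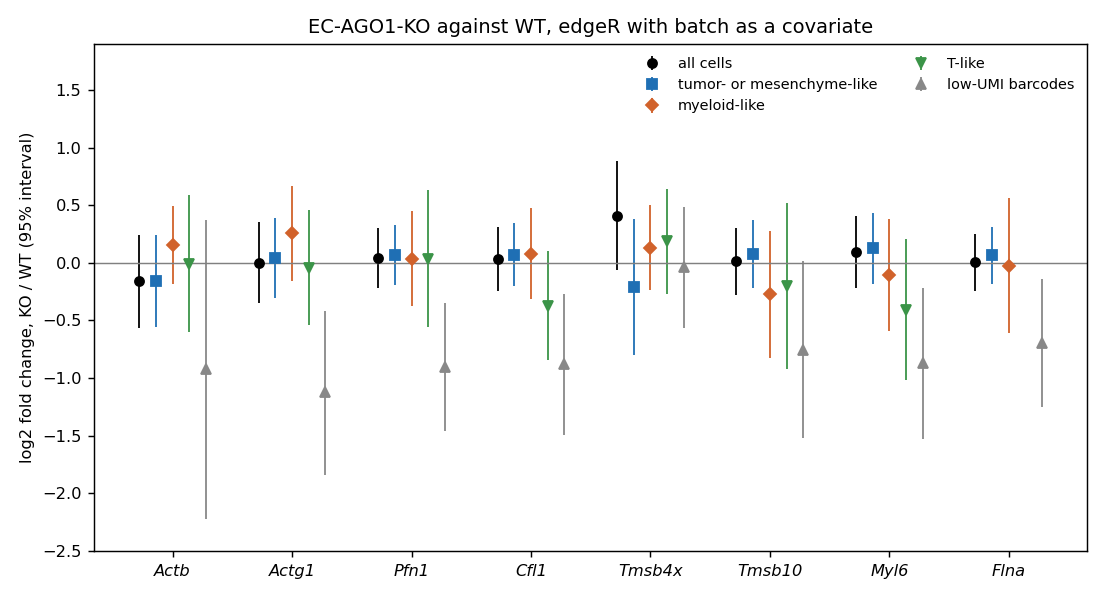
Log2 fold change of KO over WT from edgeR with its 95% interval for each gene, in all cells, 3 classes and barcodes of 1 to 50 UMIs (10 libraries). Estimates in all cells and the 3 classes run from -0.41 to 0.41, each with an interval that includes 0. Those in barcodes of 1 to 50 UMIs lie below 0 for 7 of the 8 genes by 0.70 or more.

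Among the 5 populations, the lowest adjusted p of an actin gene between the genotypes was in RNA outside cells. In the barcodes with 1 to 50 UMIs 0 of 16038 genes passed (0%), while 4617 had an unadjusted p under 0.05 and 667 passed in DESeq2. The log2 fold changes of 7 actin genes were negative, from -0.70 ± 0.27 for Flna to -1.13 ± 0.34 for Actg1 (SE, adjusted p = 0.111 and 0.0871 in edgeR), and that of Tmsb4x was -0.04. Pfn1 stood at -0.91 (0.0871), Cfl1 at -0.88 (0.0942), Myl6 at -0.87 (0.102), Tmsb10 at -0.75 (0.18) and Actb at -0.92 (0.307), with the adjusted p of edgeR in parentheses. The calls depended on the fit. With DESeq2, Actb, Actg1, Pfn1 and Cfl1 passed as lower in KO (adjusted p = 0.0401 for each in DESeq2), and with no low-count filter Actg1, Pfn1, Cfl1, Myl6 and Flna did, with a lowest adjusted p of 0.00538 in edgeR. The median over the 8 genes was -0.88 and over all genes 0.04, and other abundant cytoplasmic mRNAs had -0.90.

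The values of Actg1 are given as an example. In batch 1 it was at 748 CPM (WT) and 750 CPM (KO). In batch 2 it was at 779, 352, 1283 and 456 CPM in WT 1, 3, 4 and 5 and at 328, 334, 342 and 294 CPM in KO 1, 2+3, 4 and 5+6. The 4 KO libraries lay close together and below all 4 WT libraries, of which WT 3 was the nearest. Among the 8 genes this held for Actg1 alone. For Actb, Pfn1, Cfl1, Tmsb10, Myl6 and Flna, WT 3 lay within the range of the KO libraries of batch 2. Actb was at 88901 CPM in WT 3 against 74482 to 96344 CPM in KO, and Pfn1 at 279 CPM against 222 to 320 CPM. Without WT 3 the number of genes passing went from 0 to 7084 and 6 of the 8 actin genes passed, all lower in KO. Without the WT or the KO library of batch 1 there were 1104 and 1077 genes, and 5 of the 8. In batch 2 alone, with 4 libraries a group, 0 of the 8 passed, with a lowest adjusted p of 0.0509 in edgeR. Genes with longer T runs had lower estimates in these barcodes, with a median log2 fold change of 0.12 at 0 to 9 T and -0.42 at 25 or more, where in cells these medians were 0.01 and -0.04. Their part in the result was not tested. The separation of Actg1 depended on the size limit of the barcodes. In those with 1 to 10 UMIs, WT 5 was at 320 CPM, below all KO libraries of batch 2, which held 328 to 385 CPM. There WT 1, 3 and 4 still lay above the KO libraries, at 527, 415 and 750 CPM.

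Cells were also set against the RNA outside cells of the same library, with the library as a block. Of 21679 genes 36.9% passed as higher in cells and 49.6% as lower, around a median log2 difference of -0.60, so a difference has to be read against the scaling. On that scale 6 of the 8 actin genes passed as higher in cells, from Cfl1 at 0.67 ± 0.16 to Actb at 1.19 ± 0.32 (SE, adjusted p = 0.000591 and 0.00156 in edgeR). Tmsb10 stood at 0.35 (0.0917) and Tmsb4x passed as lower, at -0.94 ± 0.21 (SE, adjusted p = 0.000225 in edgeR). Without the TMM scaling factors the median over all genes moved to -1.19, and Actb at 0.62 and Tmsb4x were the 2 of the 8 that still passed, and with DESeq2 it was Tmsb4x alone. Without the KO library of batch 1, 3 of the 8 passed, and Actb was no longer among them (0.63, adjusted p = 0.0932 in edgeR). With no low-count filter 3 of the 8 passed, and with barcodes of 1 to 10 UMIs 4 did. For these 2 settings the share of all genes passing is not given here, so their counts describe the 8 genes only. In batch 1 alone, with 2 libraries, Actb passed as higher in cells (0.39, adjusted p = 0.00106 in edgeR). There Pfn1 at -0.35 and Flna at -0.55 passed as lower (adjusted p = 0.0226 and 0.004 in edgeR). On the TMM scale this was the opposite of their direction over all libraries. In CPM before TMM scaling, Pfn1 was 1.84 (WT) and 2.38 (KO) times higher in cells in batch 1, and Flna 1.88 and 1.74 times. Against barcodes with 1 to 10 UMIs of batch 1, Flna was lower in cells, at 190 (WT) and 212 CPM (KO) against 348 and 357 CPM.

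Before TMM scaling, Tmsb4x lay on opposite sides in the batches. Its CPM in cells over that outside cells was 1.93 (WT) and 2.49 (KO) in batch 1. In batch 2 it was 0.168, 0.246, 0.177 and 0.237 in WT 1, 3, 4 and 5 and 0.268, 0.310, 0.220 and 0.225 in KO 1, 2+3, 4 and 5+6. All 8 libraries of batch 2 thus held less Tmsb4x in cells than outside, and both of batch 1 held more. With TMM factors the sign was the same in both, at -0.28 (adjusted p = 0.0537 in edgeR) in batch 1 alone and -1.18 in batch 2 alone. Actb was 3.32 and 3.62 times higher in cells in batch 1, and 0.642 to 1.70 times as high in batch 2, where WT 1 and WT 4 lay below 1.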

How the data were processed

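Counts were read as the authors deposited them, as UMI count matrices per library made with Cell Ranger 7.1.0 on mm10, per the submitters' processing notes, from 3′ single-cell libraries. Libraries held 8323896 to 10591577 UMIs over 31053 genes, and the matrices keep barcodes of 1 UMI upward. The authors' normalization, integration and cell annotation were not used here.

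A barcode counted as a cell if it held 200 to 7000 genes and no more than 10% of its UMIs were mitochondrial, and barcodes with 1 to 50 UMIs stood for RNA outside cells. Counts were summed per library, over all cells, over these barcodes and over cell classes, and classes entered a test only from libraries with 10 or more cells. CPM scale the UMIs other than those of Actb to 1000000. Cells were clustered within each batch without the 8 genes (2000 variable genes, 30 components, 15 neighbours, Leiden resolution 1, scanpy 1.11.5, leidenalg 0.10.2, Python 3.11.15) and named from marker lists. How clusters were assigned to classes was settled on seeing the clusters and not on WT and KO values. No doublet caller was run.

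KO and WT sums were compared with the quasi-likelihood test of edgeR 4.0.16 (R 4.3.3), with library sizes without Actb, TMM factors, filterByExpr, batch as a covariate and Benjamini-Hochberg adjustment over all genes of a population. Cells and barcodes of 1 to 50 UMIs were compared with library as a block. Alternatives were DESeq2 1.42.0, no low-count filter, batch 2 alone, batch 1 alone for cells against the RNA outside them, a replicate block, omission of the pooled libraries or of each library, Actb kept in totals, another resolution, and other limits on UMIs. Each fit was tested on simulated data. Of the genes given a log2 change of 1, the share called between KO and WT was 72.7% in all cells (110 of 14182 genes changed). It was 78% in tumor- or mesenchyme-like (109 of 13090), 80.4% in myeloid-like (97 of 2314) and 55.6% in T-like cells (108 of 1563). In barcodes of 1 to 50 UMIs it was 53.3% (105 of 16038), and for cells against these barcodes 46.9% (96 of 21679). The last simulation changed far fewer genes than the 18750 called in the data, so it cannot test the TMM scaling there.

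The 8 genes, the lists and the markers were chosen with earlier results of these data known. Text names all 8 genes, genes of the lists that pass between KO and WT, the 5 genes at 100 CPM or more most correlated with Actb over 10 and over 8 libraries, and the 5 genes with the highest and the 5 with the lowest ratio of the batches. Some items that these rules name are not reported here. Other genes of the lists, and transcripts compared with these, were chosen after their values were seen, as was the study of T runs with its bounds of 20 and 25 bases, which used the longest run in any GENCODE vM21 transcript (GRCm38). Libraries hold separate tumors, 2 of them pools, and no interval covers more than the spread between libraries.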

Additional observations from a re-analysis of the deposited data

Results flagged for a closer look

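Among 80 groups of 4 libraries of batch 2 (8 genes, 5 populations, 2 genotypes), 2 held a library far from the other 3, where chance gives about 1 in 20. Tmsb4x in all cells was at 150.0 CPM in KO 2+3, from 810 UMIs, against 60.1 to 66.5 CPM in the other KO libraries of batch 2. Actg1 in T-like cells was at 722.7 CPM in KO 1, from 26 UMIs, against 474.0 to 497.9 CPM in the other KO libraries of batch 2.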

How the results depend on the processing

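The ratios of the batches in cells and in the 3 classes moved by less than 1 SD over batch 2 libraries under every alternative run. That SD is wide for Tmsb4x, whose ratio in cells was 0.0839 and 0.0553 in cells with 500 or more UMIs. At a resolution of 0.5 Flna in myeloid-like cells overlapped between the batches, at a ratio of 0.449 in place of 0.371. In barcodes with 1 to 10 UMIs in place of 1 to 50, the ratio of batch 2 to batch 1 was 5.20 for Actb, 0.211 for Actg1, 0.596 for Pfn1, 0.794 for Cfl1, 0.365 for Tmsb4x, 0.0418 for Tmsb10, 0.0903 for Myl6 and 0.468 for Flna. Counts of genes passing between KO and WT were small and moved readily. In all cells there were 2 with DESeq2, 242 with no low-count filter and 1 without the pooled libraries, and leaving out 1 library gave 0 to 1. In tumor- or mesenchyme-like cells there were 32 with no filter. In myeloid-like cells there were 0 with DESeq2, 14 with no filter, 5 in batch 2 alone, 0 without the pooled libraries, 0 in cells with 500 or more UMIs, and 0 to 10 without 1 library. In T-like cells there were 0 with DESeq2, 0 in batch 2 alone, 0 without the pooled libraries, 0 in cells with 500 or more UMIs, and 0 to 9 without 1 library. In barcodes with 1 to 50 UMIs there were 667 with DESeq2, 1518 with no filter, 303 at 1 to 10 UMIs, and 0 to 7084 without 1 library, with WT 3 and both libraries of batch 1 deciding the count. Between cells and the RNA outside them, batch 1 alone gave 1813 genes in place of 18750, and DESeq2 gave 4620 higher and 12240 lower.

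Estimates of KO against WT near 0 changed sign, none of them called. In all cells the log2 fold change of Actg1 was -0.0022 with DESeq2, -0.029 with no filter, -0.019 in batch 2 alone and -0.036 without the pooled libraries. That of Tmsb10 was -0.015 with no filter, -0.033 without the pooled libraries and -0.0013 in cells with 500 or more UMIs. That of Flna was -0.023 with no filter, -0.0012 in batch 2 alone, -0.0023 with the replicate block and -0.025 without the pooled libraries. Without 1 library the estimates ran from -0.28 to 0.0022 for Actb, -0.094 to 0.14 for Actg1, -0.018 to 0.13 for Pfn1, -0.043 to 0.11 for Cfl1, -0.050 to 0.10 for Tmsb10 and -0.047 to 0.091 for Flna, and for Actb in tumor- or mesenchyme-like cells from -0.28 to 0.0087. Actb in T-like cells was 0.26 with no filter, 0.033 without TMM factors, 0.0035 with the replicate block, 0.058 without the pooled libraries, 0.068 in cells with 500 or more UMIs and -0.091 to 0.072 without 1 library. Tmsb4x in barcodes of 1 to 50 UMIs was 0.061 with DESeq2, 0.12 without TMM factors, 0.44 at 1 to 10 UMIs and -0.27 to 0.079 without 1 library.

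Between cells and the RNA outside them, batch 1 alone gave -0.35 for Pfn1, -0.17 for Cfl1, -0.12 for Tmsb10, -0.21 for Myl6 and -0.55 for Flna, of which Pfn1 and Flna passed as lower, and barcodes of 1 to 10 UMIs gave -0.023 for Cfl1, -0.17 for Tmsb10 and -0.23 for Flna. Tmsb10 was -0.16 with no filter, -0.21 without TMM factors, -0.30 with DESeq2 and -0.24 to 0.47 without 1 library. The median over all genes was -0.60, and -1.19 without TMM factors and -1.27 with DESeq2. The fit without TMM factors was added after seeing the data. In CPM before TMM scaling, Pfn1 and Flna were higher in cells in both libraries of batch 1. For these reversals the cause was not tested.

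With the replicate number as a block, 0 genes passed in all cells, 0 in tumor- or mesenchyme-like, 4 in myeloid-like and 1 in T-like cells, and 0 in barcodes of 1 to 50 UMIs, and none of the 8 passed. The pairs numbered 1 and 4 had correlations of -0.438 and -0.419 over 2131 genes. Each value rests on 1 library of each genotype, so it cannot show whether a shared number marks a pairing. Depth limits the immune classes of batch 2 most, where Flna rested on 35 UMIs in myeloid-like and 15 in T-like cells.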
